A study of Rattus norvegicus with 2 samples.

Results

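The Krüppel-like factors (KLFs) examined here were 10 transcription factor genes, Klf2, Klf3, Klf4, Klf5, Klf6, Klf7, Klf9, Klf10, Klf13 and Klf15, in the retina of Long-Evans rats. They were taken by gene symbol from a table of 32662 genes, where they filled 11 rows because Klf7 was listed under 2 gene identifiers. The table held 2 rRNA-depleted RNA-seq libraries of retina, and the comparison asked how transcript levels stood after ischemia-reperfusion (IR) injury, in which blood flow to the eye is stopped and then let back. The CTRL library came from a 2-month-old Long-Evans rat after a sham procedure, and the IR12 library from a 2-month-old Long-Evans rat whose retina was collected 12 hours after reperfusion. The study's methods name female animals. With 1 library per condition, no difference below has a replicate check, and no test was made.

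KLFs bind GC-rich DNA, above all CACCC and GC boxes, through a conserved set of zinc fingers at the end of the protein. What precedes the fingers decides whether a KLF activates or represses, and sorts most of the family into a group that recruits acetyltransferases, a group that recruits the SIN3A repressor complex and a group that recruits the CtBP repressor. In nerve cells of the retina the family is known for its effect on axon growth, with Klf4 and Klf9 as brakes and Klf6 and Klf7 as promoters, and in blood vessels for the quiescent state of endothelium.

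Levels are given as FPKM, by definition fragments divided by transcript length and by the library's mapped fragments, so that genes of different length can be set side by side. Whether the deposited values were also scaled between the libraries is not given. A log2 ratio is that of FPKM + 1 in IR12 over FPKM + 1 in CTRL, which understates the difference of genes under about 1 FPKM. Steps in the lowest FPKM of short genes, if taken as 1 read, put 1 FPKM at 15.4 reads per kilobase in CTRL and 26.3 in IR12. On this estimate low values rest on more reads in IR12. The study reports more reads per library than this scale implies, and a smaller ratio of IR12 to CTRL. All reads per kilobase given here are therefore estimates. The defining rod genes considered were all present, with 6 of 6 above 1 FPKM and a sum of 8724 in CTRL and 11128 in IR12, as the label retina asks. The rod transducin gene Gnat1 (4027 and 4237) led them in CTRL and the arrestin gene Sag (2482 and 4703) in IR12. Lens genes were present too, and differed between the libraries: the summed FPKM of 8 crystallin and lens fiber genes was 3385 in CTRL and 401.7 in IR12.

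Of the 10 KLF genes, 3 rose at least 2-fold in IR12 (Klf6, Klf5 and Klf10) and 0 fell at least 2-fold, beside 6.56% of all genes that rose and 6.12% that fell. These shares are 892 and 832 of the 13599 genes with an FPKM of at least 1 in either library. The median log2 ratio of the 10 genes was 0.03, and that of all genes 0.02. The former median includes Klf2, Klf13 and Klf15, which were under 1 FPKM in both libraries, and the latter leaves such genes out. Of the genes tested, 2.96% had a higher ratio than Klf6, 4.52% a higher ratio than Klf5 and 6.27% a higher ratio than Klf10. An FPKM of at least 1 in either library was reached by 7 of the 10, and in both libraries by 6. Klf5 was the gene that passed through IR12 alone and so had to differ, while the 3 others named stayed under it.

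**Figure D1:**
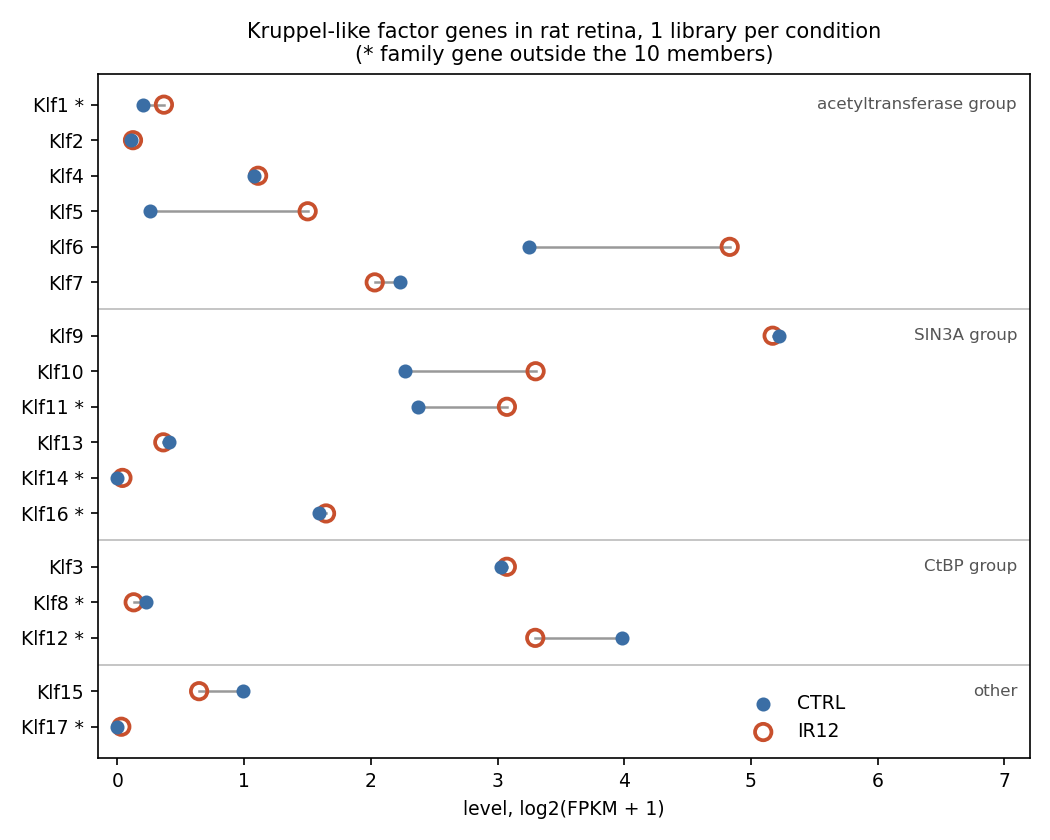
Level of each of the 17 KLF genes as log2(FPKM + 1) in CTRL (filled) and IR12 (open), 1 library each, grouped by the corepressor or coactivator their proteins recruit. Klf6, Klf5 and Klf10 lie at least 2-fold higher in IR12 as deposited (Klf10 falls short under 2 other scalings), and Klf9 is the most abundant gene in both libraries.

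The group that recruits acetyltransferases held the genes with the highest ratios as deposited, Klf6 and Klf5. At the same sum Klf10 (1.55) stood above Klf5 (1.42), and with a pseudocount of 0.1 Klf5 (2.72) stood above Klf6 (1.68). Klf6, a growth regulator that is rapidly induced in injured vessel wall and liver and that promotes axon growth, is listed at chr17:67887939-67945037 of rn6. Its FPKM was 8.50 in CTRL and 27.5 in IR12, 3.23 times as high. The log2 ratio was 1.58, and ranged from 1.49 to 2.17 over 4 other scalings of the libraries. These FPKM correspond to 131 and 723 reads per kilobase, so neither value rests on a few reads. Among the genes with an FPKM of at least 1 in a library, Klf6 stood above 37.9% in CTRL and above 67.4% in IR12. It moved from the middle to the upper part of the expressed genes.

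Klf5, a driver of proliferation in intestinal epithelium and of the growth response of vascular smooth muscle, is listed at chr15:83703791-83722921. It had 0.193 FPKM in the CTRL library and 1.83 FPKM in IR12. The log2 ratio was 1.25 with the pseudocount of 1 and 2.72 with a pseudocount of 0.1. The CTRL value corresponds to 2.97 reads per kilobase against 48.2 in IR12, so the size of this ratio depends on very few reads in CTRL. Klf5 remained a low gene after injury, above 8.78% of the expressed genes of IR12.

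The other 3 genes of this group among the 10 differed little. Klf7, named for its ubiquitous expression and known for its part in the growth of sensory and olfactory axons, is listed at chr9:70740480-70787913. Its main row had 3.68 FPKM after the sham procedure and 3.09 FPKM in IR12, which is a log2 ratio of -0.20 that became 0.29 when the libraries were scaled to the same sum. The second row with the symbol Klf7, on the same coordinates, had 0.228 in CTRL and was listed at 0 in IR12. Reads of the pair share their locus, and summing them left Klf7 lower in IR12 as deposited. Klf4, a reprogramming factor that also slows axon growth of retinal ganglion cells, is listed at chr5:72283313-72287669. It had 1.11 FPKM in CTRL and 1.16 FPKM in IR12, near the floor of the expressed genes in each library.

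Klf2, which flow through the vessel induces in endothelium and which holds endothelium and T cells in a quiescent state, is listed at chr16:19223087-19225037. It had 0.0760 FPKM in the CTRL library and 0.0890 FPKM in IR12. Within 0.1%, these are the values of 1 and 2 reads or a multiple of them. At 1.17 and 2.34 reads per kilobase, no difference in Klf2 was detectable at this depth. Klf1, the erythroid KLF and the remaining gene of the group, had 0.148 FPKM after the sham procedure and 0.290 FPKM in IR12, both under 1. Over the 6 genes of the group the median log2 ratio was 0.10, with 2 at least 2-fold higher and 0 lower.

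Promoters are shown for the genes of this group that rose, Klf5 and Klf6, and for Klf9, the most abundant gene, whose values in both libraries were nearly equal. RefSeq promoter sequences matched 7 of the 10 genes by symbol, and had no entry for Klf2, Klf10 and Klf13. The sequences are on build GRCr8, which is not the rn6 of the FPKM table. They hold the 250 bases before the start site, 5′ to 3′, at chr15:82471831-82472080 (+ strand) for Klf5, chr17:69458479-69458728 (- strand) for Klf6 and chr1:230126396-230126645 (+ strand) for Klf9. Capitals mark CCAAT boxes on either strand, read as CCAAT or ATTGG.
Klf5: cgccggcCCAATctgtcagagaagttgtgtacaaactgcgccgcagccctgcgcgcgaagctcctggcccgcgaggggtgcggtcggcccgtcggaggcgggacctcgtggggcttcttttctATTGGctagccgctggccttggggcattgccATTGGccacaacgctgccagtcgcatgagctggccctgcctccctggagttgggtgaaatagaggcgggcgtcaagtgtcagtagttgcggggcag
Klf6: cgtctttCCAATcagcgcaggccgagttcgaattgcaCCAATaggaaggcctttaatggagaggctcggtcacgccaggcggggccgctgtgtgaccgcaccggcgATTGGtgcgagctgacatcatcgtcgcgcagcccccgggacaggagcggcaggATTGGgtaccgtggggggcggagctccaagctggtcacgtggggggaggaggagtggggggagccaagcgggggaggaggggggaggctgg
Klf9: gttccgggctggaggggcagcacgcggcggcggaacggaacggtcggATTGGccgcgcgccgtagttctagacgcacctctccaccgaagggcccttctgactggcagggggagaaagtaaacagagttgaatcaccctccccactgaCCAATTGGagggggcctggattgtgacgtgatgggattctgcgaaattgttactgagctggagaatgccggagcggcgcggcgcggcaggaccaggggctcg
There are 3 CCAAT boxes in the Klf5 promoter, 4 in that of Klf6 and 3 in that of Klf9, where 2 of them overlap. Matches were searched on both strands from 250 bases before to 50 bases after the start site, and describe letters, not sites of binding. A CCAAT box was found in 5 of the 7 promoters (Klf3, Klf5, Klf6, Klf9 and Klf15) and in 37.5% of all 33469 promoters of the same length. Of the boxes that KLF proteins themselves bind, CACCC was found in 5 of 7 against 54.9% of all promoters, and the GC box GGGCGG in 3 of 7 against 33.1%. The CCAAT box of Klf3 overlaps a CACCC box.

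Motifs of factors that act after injury or growth stimuli were searched in the same way. The CArG box, named for the element that serum response factor binds, had 1 match, in Klf6 from -201 to -192 relative to the start site, and occurs in 1.64% of all promoters. The AP-1 motif TGANTCA was found in 1 of 7 (Klf9, where it overlaps a CACCC box) against 7.33% of all. The STAT motif TTCNNNGAA was found in 2 of 7 (Klf4 and Klf9) against 8.87%, and the CRE core TGACG in 3 of 7 (Klf5, Klf9 and Klf15) against 21.2%. None of the AP-1 or STAT matches lay in the promoter of Klf5 or Klf6 within this window.

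The group that recruits SIN3A held the most abundant KLF. Klf9, a target of glucocorticoid and thyroid hormone receptors that restrains axon growth as neurons mature, is listed at chr1:240908483-240933198. Its FPKM was 36.3 in CTRL and 35.0 in IR12, above 76.0% and 73.7% of the expressed genes. The log2 ratio was -0.05 as deposited and 0.58 with the libraries scaled to the same sum, which is -0.02 relative to the median of all genes on that scale. Its place among the expressed genes was thus close in the libraries.

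Klf10, an early gene of TGF-beta signalling, is listed at chr7:77156006-77162148. It had 3.81 FPKM in CTRL and 8.85 FPKM in IR12, 2.32 times as high, with a log2 ratio of 1.03. This lies just past the 2-fold limit. With the libraries brought to the same upper quartile the ratio was 0.97, and with the same sum without small non-coding RNAs 0.95, both short of 2-fold. Klf11, its closest relative and also a TGF-beta target, is not among the 10 and had 4.19 FPKM in the CTRL library and 7.42 FPKM in IR12, which is a log2 ratio of 0.70, or 1.22 at the same sum.

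Klf13, a regulator of chemokine expression in T cells and of heart development, is listed at chr1:124772596-124803363. It had 0.325 FPKM after the sham procedure and 0.285 FPKM in IR12, which within 0.1% are the values of 2 and 3 reads or a multiple of them. Of the remaining genes of the group, Klf16 had 2.01 FPKM in CTRL and 2.13 FPKM in IR12, and Klf14 was listed at 0 in CTRL and at 0.0279 in IR12. Over the 6 genes the median log2 ratio was 0.05, with 1 at least 2-fold higher and 0 lower. At the same sum Klf11 made it 2, and under the scalings that take Klf10 below 2-fold the count was 0.

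The group that recruits CtBP was represented by Klf3, a repressor in erythroid cells and fat cells, at chr14:45142769-45165207. It had 7.16 FPKM in the CTRL library and 7.42 FPKM in IR12. Its log2 ratio of 0.04 became 0.60 at the same sum, and turned to -0.04 with the same sum without small non-coding RNAs and to -0.02 with the same upper quartile. Of its group, Klf12, a repressor of the AP-2 alpha gene, had 14.8 FPKM after the sham procedure and 8.83 FPKM in IR12. That log2 ratio of -0.68 is short of 2-fold, and was -0.09 at the same sum, or -0.68 relative to the median of all genes. Klf8 had 0.171 in CTRL and 0.0931 in IR12, and the median log2 ratio of the 3 genes was -0.10.

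Klf15 stands outside these groups and serves the fasting metabolism of amino acids and glucose, and in the retina binds promoters of photoreceptor genes. It is listed at chr4:122365093-122377659, with 0.991 FPKM in CTRL and 0.563 FPKM in IR12. The log2 ratio of -0.35 was the lowest of the 10 genes as deposited. It was -0.72 with a pseudocount of 0.1 and -0.07 at the same sum. The FPKM correspond to 15.3 and 14.8 reads per kilobase. Klf17, the last of the family, was listed at 0 in CTRL and at 0.0216 in IR12.

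**Figure D2:**
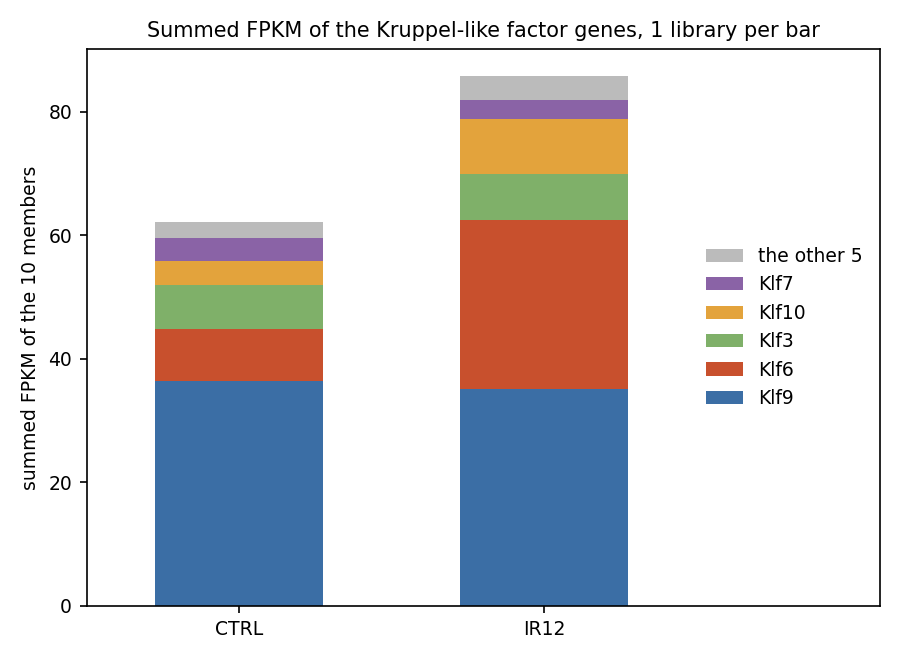
Summed FPKM of the 10 KLF genes in CTRL and IR12, 1 library per bar, stacked by gene. Klf9 makes up 58.4% of the bar in CTRL and 40.8% in IR12, and Klf6 13.7% and 32.0%.

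The mix of KLF transcripts thus differed between the libraries. The summed FPKM of the 10 genes was 62.2 in CTRL and 85.8 in IR12. Klf9 took 58.4% of the sum in CTRL and 40.8% in IR12, while Klf6 took 13.7% and 32.0%. Klf10 took 6.14% and 10.3%, and Klf3 11.5% and 8.65%. Scaling a library leaves these shares as they are. Klf6 stood at 27.5 FPKM beside 35.0 for Klf9 in IR12, and at 8.50 beside 36.3 in CTRL.

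Over all 17 KLF genes the sum was 83.4 in CTRL and 104.6 in IR12, and as deposited 3 genes lay at least 2-fold higher. The 7 KLF genes outside the 10 had a median log2 ratio of 0.04 and none past 2-fold as deposited, while at the same sum Klf11 passed it. The Sp factors, the nearest relatives, share the zinc fingers and bind the same GC boxes. They were more abundant than the KLFs, with a summed FPKM of 286.6 in CTRL and 275.7 in IR12 over 9 genes. Sp3 led with 159 FPKM in the CTRL library and 152 FPKM in IR12, followed by Sp4 with 88.2 and 89.8. Sp1 had 36.0 in CTRL and 31.5 in IR12, close to Klf9. The median log2 ratio of the Sp genes was -0.06 as deposited and 0.09 at the same sum, and 0 of 9 passed 2-fold in either direction as deposited. Sp5 was listed at 0 in CTRL and 0.317 in IR12, and passed 2-fold with a pseudocount of 0.1. Sp8 and Sp9 were listed at 0 in both libraries, which holds their ratios at 0 within the median. At the same sum Sp1, Sp3 and Sp4 had log2 ratios of 0.44, 0.58 and 0.66, while Sp6 (-0.09) and Sp7 (-0.05) were lower in IR12.

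**Figure D3:**
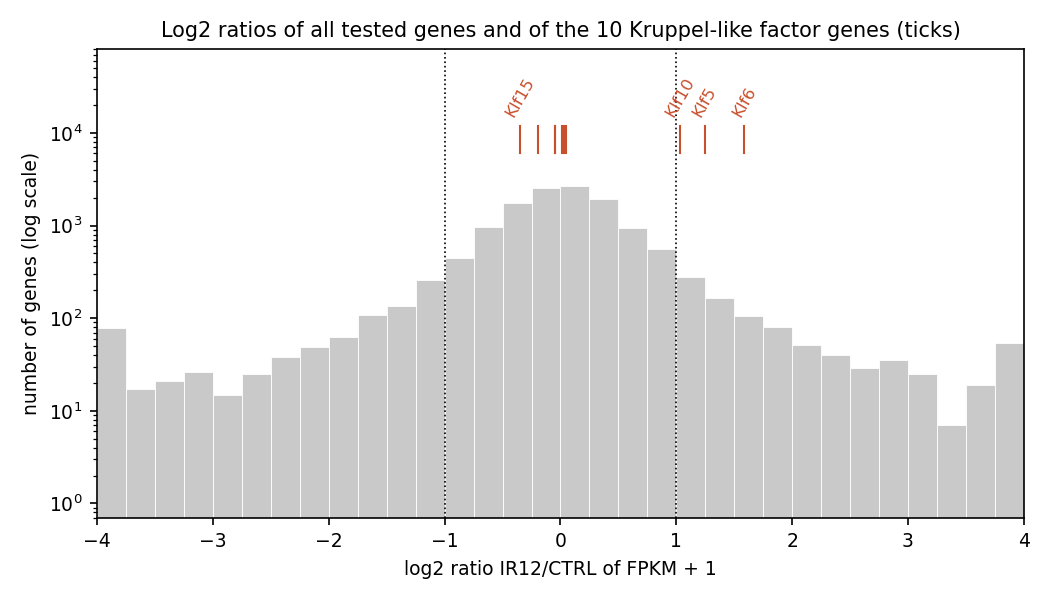
Number of genes (log scale) by log2 ratio of IR12 over CTRL for the 13599 genes tested, in bins of 0.25 with the values beyond 4 gathered in the outer bins; ticks mark the 10 KLF genes and dotted lines 2-fold. Klf10 (1.03), Klf5 (1.25) and Klf6 (1.58) stand right of the upper line.

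Directions among the KLF genes depended in part on the scaling of the libraries. Before the pseudocount, scaling the libraries to the same sum, as for TPM, shifts every log2 ratio by 0.65 and moved the median of all genes to 0.59. Small non-coding RNAs made up 68.1% of the sum of FPKM in CTRL and 46.4% in IR12, and leaving them out of the sum gave a shift of -0.10 instead. At the same sum 2817 genes were at least 2-fold higher and 436 lower, so that 86.6% of these were higher, against 51.7% as deposited. As deposited, 6 of the 10 genes were higher in IR12; at the same sum 9 were, as Klf7, Klf9 and Klf13 turned positive, and with the same upper quartile or the same sum without small non-coding RNAs 4 were, as Klf3 and Klf4 turned negative. Relative to the median of all genes at the same sum, Klf6 stood at 1.57, Klf10 at 0.96, Klf5 at 0.83 and Klf15 at -0.66. Klf6 and Klf5 were past 2-fold in IR12 under each of the 5 scalings with the pseudocount of 1.

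**Figure D4:**
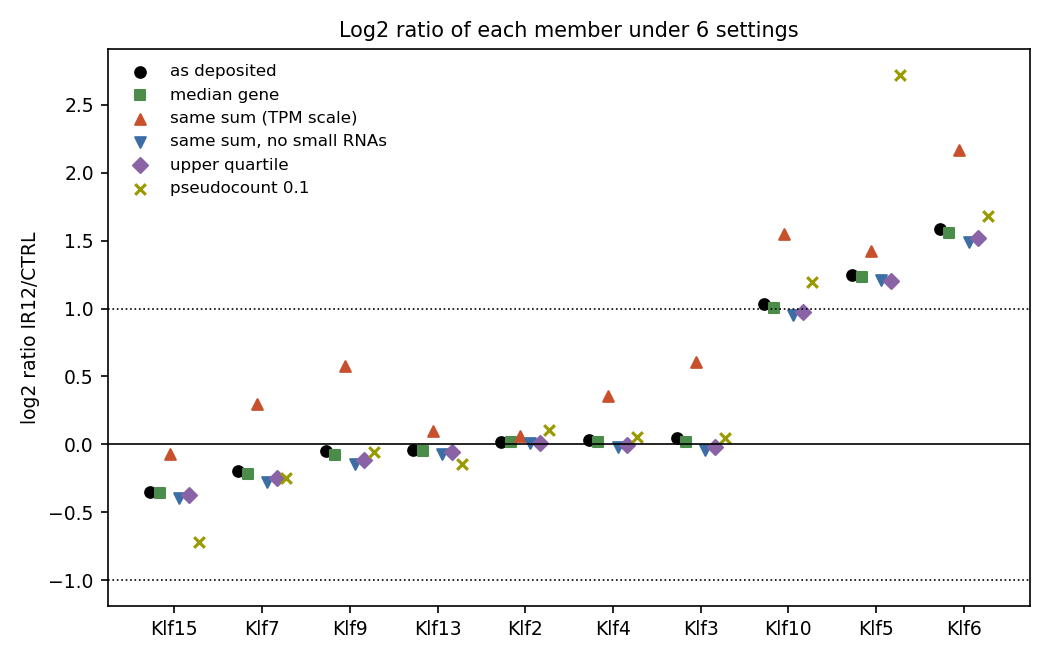
Log2 ratio of IR12 over CTRL for each of the 10 KLF genes under 5 scalings and with a pseudocount of 0.1; dotted lines mark 2-fold. Klf6 and Klf5 lie above 1 under all of them, Klf10 falls to 0.95 and 0.97 under 2, and Klf7, Klf9 and Klf13 turn from negative to positive at the same sum (TPM scale), Klf3 and Klf4 from positive to negative under the upper quartile and the same sum without small RNAs.

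Of 9 cofactors through which KLFs act, 0 passed 2-fold under any of the 5 scalings. The coactivator p300 (Ep300) had 53.5 FPKM after the sham procedure and 43.3 FPKM in IR12, and its relative CBP (Crebbp) 25.1 and 17.1, with log2 ratios of -0.30 and -0.53, or 0.33 and 0.09 at the same sum. The acetyltransferase gene Kat2b had the lowest FPKM, 11.1 and 9.06. The corepressors Ctbp2 (FPKM 85.3 and 78.7) and Sin3a (31.2 and 30.3) had close values in both libraries as deposited. The median log2 ratio of the 9 was -0.04, or 0.58 at the same sum, where Sin3b and Hdac1 reached 0.91. Of the ubiquitin ligases that mark KLFs for degradation, Wwp1 had 43.5 in CTRL and 39.2 in IR12, and Fbxw7 62.4 and 87.5, with a median log2 ratio of 0.17 for the pair and Fbxw7 past 2-fold at the same sum.

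Upstream of Klf2 and Klf4, the flow-responsive MEK5 and ERK5 kinases act through MEF2 factors. Of 7 genes of this route 0 passed 2-fold, and the median log2 ratio was -0.17, or 0.42 at the same sum. Mef2c had the highest FPKM, 65.1 in CTRL and 48.9 in IR12. The ERK5 gene Mapk7 was listed at 0 in both libraries, which holds its ratio at 0 within the median. A listed 0 can be a failed estimate here, since the housekeeping gene Hprt1 was also listed at 0 in both.

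Genes that Klf2 and Klf4 induce in endothelium had low to moderate levels. Endothelial nitric oxide synthase (Nos3) had 0.526 FPKM in CTRL and 0.946 FPKM in IR12, thrombomodulin (Thbd) 2.22 and 4.24, and the sphingosine-1-phosphate receptor S1pr1 10.9 and 10.7. Their median log2 ratio was 0.35, with 0 of 3 past 2-fold as deposited and Thbd past it at the same sum. Of 5 genes considered that these factors repress there, 2 rose at least 2-fold, the chemokine Ccl2 and E-selectin (Sele). Ccl2 had 0.205 FPKM in the CTRL library and 121 FPKM in IR12. Sele had 0.142 and 3.54. Their CTRL values correspond to an estimated 3.16 and 2.19 reads per kilobase, so the sizes of these ratios depend on very few reads. The other 3, Vcam1 (10.8 in CTRL and 8.48 in IR12), endothelin 1 (Edn1, 3.12 and 2.85) and tissue factor (F3, 16.2 and 18.2), did not pass 2-fold, and the median of the 5 was 0.16.

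Hormone and growth factor routes that induce single KLFs were mixed. The glucocorticoid receptor gene Nr3c1 had 71.1 FPKM after the sham procedure and 73.6 FPKM in IR12 in the higher of its 2 rows. Its other row, at a separate locus, had 50.5 and 44.3, with a log2 ratio of -0.19 against 0.05, so no direction is given. The mineralocorticoid receptor gene Nr3c2 had 19.8 and 19.1, and with the higher row the median of the pair was -0.0024. Of 10 glucocorticoid response genes, 1 passed 2-fold, the metallothionein Mt2A, with 2.53 in CTRL and 30.0 in IR12. The others include Tsc22d3, the glucocorticoid-induced leucine zipper (35.7 and 22.6), and the receptor co-chaperone Fkbp5 (6.42 and 8.84). The median of the 10 was -0.01, or 0.43 at the same sum. Mt1 was listed at 0 in CTRL and 0.204 in IR12, and Pdk4 had 0.474 and 0.0555, an estimated 7.29 and 1.46 reads per kilobase, so neither is given a direction.

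In TGF-beta signalling, which induces Klf10, 0 of the 10 genes considered passed 2-fold as deposited and 1, Smad3 (11.7 in CTRL and 16.3 in IR12), did at the same sum. The receptor gene Tgfbr2 had the highest log2 ratio of them as deposited, 0.56, with 0.628 in CTRL and 1.40 in IR12, and passed 2-fold with a pseudocount of 0.1. The ligand Tgfb2 had 52.0 FPKM in CTRL and 47.9 FPKM in IR12, and the signal transducer Smad4 105 and 108. The median log2 ratio was 0.03, or 0.60 at the same sum, and -0.04 and -0.01 with the same sum without small non-coding RNAs and the same upper quartile. Of 4 genes of branched-chain amino acid, proline, glucose and potassium channel function that Klf15 controls, 0 passed 2-fold, with a median of 0.10. Kcnip2 was listed at 0 in both libraries, which holds its ratio at 0 within that median.

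The genes of axon regeneration, among which Klf6 and Klf7 are counted by function, had the highest median of the pathway lists as deposited. Of 7 genes, 4 rose at least 2-fold, 0 fell and the median log2 ratio was 1.78. The stress-induced factor Atf3 had 2.62 FPKM in the CTRL library and 94.5 FPKM in IR12, and the cytokine signal transducer Stat3 17.7 and 120. Its inhibitor Socs3 had 0.393 and 29.1, and the growth cone protein Gap43 20.1 and 71.4. The CTRL value of Socs3 corresponds to an estimated 6.05 reads per kilobase, so the size of its ratio depends on few reads. Jun (7.24 and 13.5), Sprr1a (0.106 and 0.748) and Sox11 (0.359 and 0.589) were higher in IR12 without passing 2-fold on this scale, which Jun did at the same sum and Sprr1a with a pseudocount of 0.1, from an estimated 1.64 and 19.7 reads per kilobase.

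**Figure D5:**
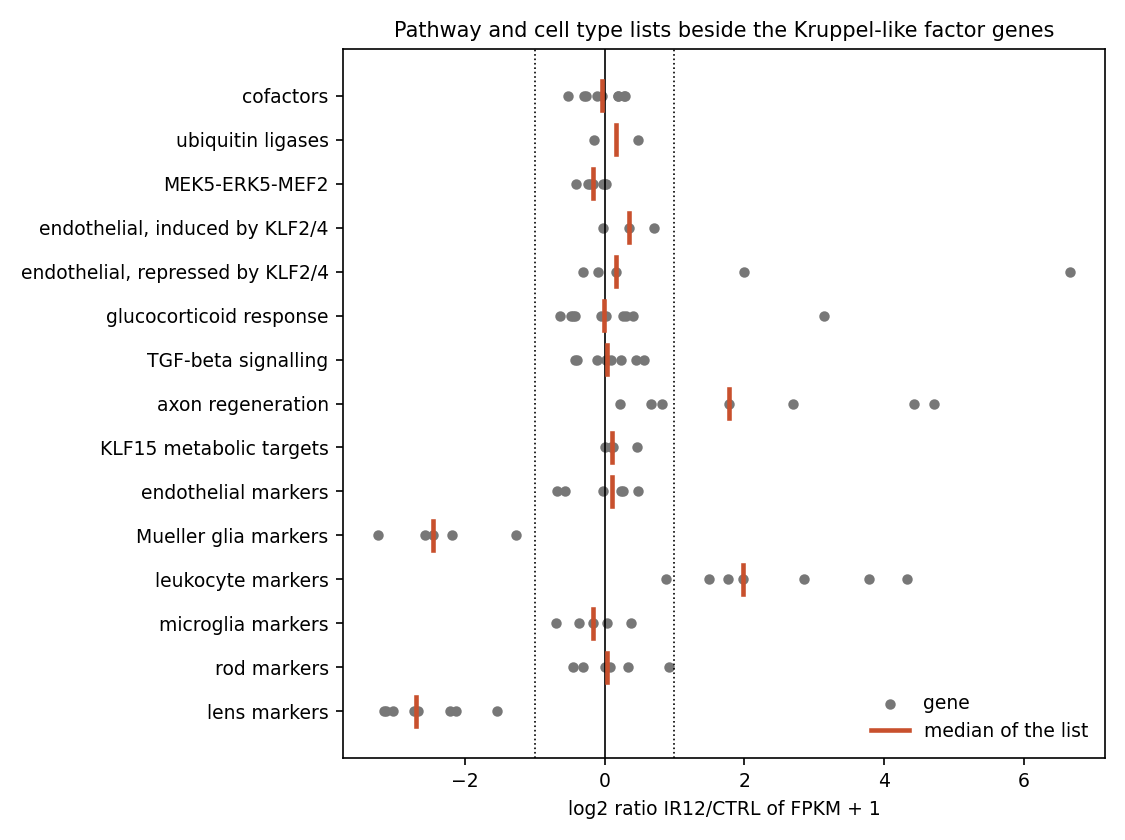
Log2 ratio of IR12 over CTRL for each gene (points) of 15 pathway and cell type lists, with the median of each list as a bar and 2-fold as dotted lines. Axon regeneration (median 1.78) and leukocyte markers (1.99) lie to the right, Müller glia (-2.46) and lens markers (-2.71) to the left, and the cofactors of KLFs (-0.04) at the centre.

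Marker genes of several cell types differed between the libraries too. In whole retina, fewer cells of a type and less RNA per cell cannot be told apart. Leukocyte markers were higher in IR12 in 7 of 7, with 6 at least 2-fold higher, a summed FPKM of 11.6 in CTRL against 126 in IR12 and a median log2 ratio of 1.99. Lyz2 was the most abundant (9.73 and 76.9), and S100a8, listed at 0 in CTRL, had 12.8 in IR12. All leukocyte markers but Lyz2 were under 1 FPKM in CTRL and reached it in IR12 alone. Their CTRL values correspond to at most an estimated 10.7 reads per kilobase (Itgam), so the sizes of their ratios depend on few reads. Müller glia markers were at least 2-fold lower in 5 of 5, with a sum of 1043 in CTRL and 201 in IR12, a median of -2.46 and glutamine synthetase (Glul, 754 and 126) as the most abundant. Lens markers were at least 2-fold lower in 8 of 8, with a median of -2.71 and Cryba1 as the most abundant (1614 and 196), and no Müller glia or lens marker was at 0. At the same sum 4 of 5 Müller glia markers stayed at least 2-fold lower, without Slc1a3, and 7 of 7 leukocyte markers were at least 2-fold higher, as they were with a pseudocount of 0.1. The part of leukocytes, Müller glia and lens in the higher Klf6, Klf5 and Klf10 was not tested.

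Vessel cells, in which Klf2 and Klf4 are best known, gave weaker and mixed values. Of 7 endothelial markers 6 were found, with 0 past 2-fold, a median log2 ratio of 0.11 and a sum of 117 in CTRL and 76.7 in IR12, most of it Kdr (108 and 66.8), which retinal neurons and glia can also express. The junction gene Cdh5 had 0.883 in CTRL and 1.63 in IR12, while Cldn5, of the same list, was lower, with 2.92 and 1.65. Of 3 pericyte markers 1 was at least 2-fold lower, Rgs5 (38.6 and 17.6), the most abundant, with a median of -0.26 and a sum of 43.5 and 21.7. Microglia markers had a median of -0.17 with 0 of 5 past 2-fold and a sum of 12.1 and 12.5, led by Aif1 (5.42 and 7.36). No direction is given for the list. Csf1r had 3.61 and 3.71, a log2 ratio of 0.03, or 0.52 at the same sum and -0.05 with the same sum without small non-coding RNAs, and P2ry12 had 1.67 and 0.650, past 2-fold with a pseudocount of 0.1. Cx3cr1 (1.16 and 0.676 FPKM) had an estimated 17.8 reads per kilobase in either library and Tmem119 3.56 and 2.54. Blood markers, which bear on the erythroid Klf1, had a median of 0.30, a sum of 28.4 and 52.6, led by Hbb, and 1 of 4 at least 2-fold higher, Hba-a2 (6.77 and 17.1). Hba-a1 (0.859 and 0.168) was lower and passed 2-fold with a pseudocount of 0.1, from an estimated 13.2 and 4.41 reads per kilobase, and Alas2 had 0.334 and 0.196 FPKM, 5.15 of such reads in either. At the same sum Rgs5 was not past 2-fold, and Hbb was. No marker found of these 4 lists was at 0 in either library.

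Of retinal neurons, ganglion cells send the axons on which Klf4, Klf6, Klf7 and Klf9 act. Ganglion cell markers had a median log2 ratio of -0.27 with 1 of 7 at least 2-fold lower, Pou4f2, at 3.41 in CTRL and 1.06 in IR12. Their sum was 312 in CTRL and 251 in IR12, led by Nefl. Medians were 0.04 for rods (0.68 at the same sum, and -0.06 and -0.03 with the same sum without small non-coding RNAs and the same upper quartile), with 0 of 6 past 2-fold, -0.72 for cones, with 1 of 5 at least 2-fold lower, -0.43 for bipolar cells, -0.79 for amacrine cells and -0.30 for horizontal cells, with 0 past 2-fold in the latter lists as deposited. Summed FPKM in CTRL and IR12 was 391 and 257 for cones, 452 and 333 for bipolar cells, 213 and 141 for amacrine cells and 77.0 and 45.2 for horizontal cells. Pigment epithelium had a median of -0.14, with 1 of 5 at least 2-fold lower, Rpe65 (11.1 and 4.88), while its sum was 77.3 and 96.6, led by Ttr (61.8 and 87.4). At the same sum the medians of ganglion, bipolar and horizontal cells and of pericytes turned positive, Pou4f2, the cone opsin gene Opn1sw and Rpe65 were not past 2-fold, and Sag and Ttr were higher by at least 2-fold. Under the other 3 scalings the amacrine gene Tfap2b and the cone gene Arr3 were at least 2-fold lower as well, and with a pseudocount of 0.1 so were both of them, Tfap2a and Pou4f1, the latter from an estimated 3.77 and 0.944 reads per kilobase. Of 7 housekeeping genes, 1 was at least 2-fold higher, Actb (260 in CTRL and 537 in IR12), Gapdh had 716 and 690, and the median was 0.12. Hprt1, listed at 0 in both libraries, is held at a ratio of 0 within that median. Actb fell short of 2-fold with the same upper quartile and the same sum without small non-coding RNAs, and Rplp0 passed it at the same sum. Which of these cells the KLF transcripts came from was not tested.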

How the data were processed

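Total RNA of rat retina, in the libraries CTRL and IR12, was depleted of rRNA and sequenced as single-end reads. The authors deposited gene-level FPKM, 1 column per library, and each column was matched to its sample by name. The submitters' processing notes list STAR 2.5.2b, Cuffdiff 2.2.0 and the build rn6, with no role or order. Starts in the table are 0-based, and 1 was added to them. For a symbol with several rows, the row with the highest summed FPKM was taken. Log2 ratios were computed on FPKM + 1 (Python 3.11.15, numpy 2.4.6, pandas 2.3.3), checked on simulated data. A gene was counted as tested if either library reached an FPKM of 1, and called at 2-fold. Read depth was estimated from the lowest repeated FPKM at each of 25 locus lengths under 1500 bp, of which 17 gave a ratio of 1.71 between the libraries; this step was chosen after the data were seen. Calls in each list under each scaling and with a pseudocount of 0.1 were counted after the data were seen. Alternatives were other pseudocounts, filters, fold limits and scalings. Named genes were the KLF and Sp genes, the genes of pathway and cell type lists, and the 3 genes nearest in level to the KLF genes with the highest and lowest ratio. The 10 genes and the lists were chosen with earlier results of these data known. Of the genes listed, 2 are not reported here, and the values of their lists were computed without them.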

Additional observations from a re-analysis of the deposited data

How the results depend on the processing

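With 1 library per condition no replicate could be left out, no paired analysis was possible because each condition has replicate 1 alone and no test was made, and no spread between replicates was at hand. A log2 value was therefore read as kept when it moved by at most 0.1, a limit chosen after the data were seen. Of 242 values under the alternatives, 182 were kept in this sense or within 1.5 times the count, and 0 called values changed sign. Before the pseudocount, centring on the median gene, the upper quartile and the sum without small non-coding RNAs shift log2 ratios by -0.03, -0.07 and -0.10. These shifts lie within the limit, so log2 values under them were kept by construction unless they crossed 2-fold. The count rule also keeps a change from 3 to 2. The share kept is thus no measure of robustness. The count of KLF genes at least 2-fold higher was 3 under 4 alternatives, including no pseudocount (chosen after seeing the data), and 2 with the upper quartile, with the sum without small non-coding RNAs and with a filter of FPKM 5. The count at least 2-fold lower was 0 under these 7 alternatives. With a limit of 1.5-fold in place of 2-fold, 3 KLF genes were higher and 0 lower. Summing the rows of Klf7, also chosen after seeing the data, left the median of the 10 genes at 0.03.

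Scaling to the same sum moved most values, by its own construction, since it raises each gene of IR12 against CTRL by the same factor. The median of the 10 genes became 0.47, and all genes at least 2-fold higher and lower 2817 and 436. List medians became 0.091 for Sp genes, 0.33 for the acetyltransferase group, 0.53 for the SIN3A group, 0.58 for cofactors, 0.80 for ubiquitin ligases, 0.42 for MEK5-ERK5-MEF2, 0.58 for genes induced by Klf2 and Klf4, 0.77 for genes repressed by them, 0.43 for glucocorticoid response and 0.62 for corticoid receptors. Further medians were 0.60 for TGF-beta signalling, 2.40 for axon regeneration, 0.35 for Klf15 targets, 0.76 for housekeeping, 0.47 for endothelium, 0.17 for pericytes, -1.93 for Müller glia, 2.30 for leukocytes, -0.055 for microglia and 0.14 for ganglion cells. The rest were 0.68 for rods, -0.095 for cones, 0.19 for bipolar cells, -0.16 for amacrine cells, 0.025 for horizontal cells, -0.042 for pigment epithelium, -2.11 for lens and 0.67 for blood.

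The pseudocount of 0.1, which gives more weight to genes of few reads, gave medians of 0.28 for the 7 other KLF genes, -0.49 for the CtBP group, 0.38 for the acetyltransferase group, 0.22 for the SIN3A group, 0.74 for genes induced by Klf2 and Klf4, 2.04 for axon regeneration and 0.27 for Klf15 targets. It gave -2.58 for Müller glia, 2.97 for leukocytes, -0.69 for microglia, -0.51 for ganglion cells, -0.52 for horizontal cells, -0.61 for pigment epithelium, -2.95 for lens and 0.11 for blood. Of the ratios of the 10 genes, 37 of 51 values were kept, 12 moved and 2, both of Klf10, dropped below 2-fold. Here too, values under the small shifts named above were kept by construction unless they crossed 2-fold. Depth limits the values of Klf2 and of Klf5 in CTRL, at 1.17 to 2.97 reads per kilobase, and the number of reads behind Klf13 is not settled.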

Other observations

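The genes nearest to Klf6 in the plane of log2(FPKM + 1) in CTRL and IR12, over 2 libraries, were Mrto4, a ribosome assembly factor (FPKM 8.45 in CTRL and 27.1 in IR12, distance 0.02), the tyrosine phosphatase gene Ptpn1 (9.16 and 26.7, distance 0.11) and prohibitin, Phb (9.33 and 26.9, distance 0.13). Those nearest to Klf15 were Ttpa, the alpha-tocopherol transfer protein gene (0.981 and 0.555, distance 0.01), the meiotic recombinase gene Dmc1 (1.01 and 0.557, distance 0.01) and Siah3 (0.966 and 0.566, distance 0.02). With 2 libraries, nearness says only that the values are alike.

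The steps of the lowest FPKM also give reads for low KLF values. If Klf2 had exactly 1 read in CTRL and 2 in IR12, its transcript would be 1056 bp long in the annotation used, while its listed locus spans 19223087 to 19225037 on chromosome 16 of rn6. Klf1 fell on the values of 3 and 10 reads and Sp6 on those of 10 and 9, or multiples, within 0.1%.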
